A study of Mus musculus with 12 samples.

Results

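The genes described here are 73 mouse splicing factor and heterogeneous nuclear ribonucleoprotein (hnRNP) genes, followed in testes of 4 ages. They were taken from the transcript table by symbol, as every gene whose name begins as Srsf, Hnrnp, Sf3a or Sf3b, Prpf, U2af, Rbfox, Ptbp, Nova, Celf or Mbnl, and every transcript of them that matched an annotated transcript (class code =), lay inside one (c), shared at least 1 splice junction with one (j) or overlapped its exons on the same strand (o). This gave 413 transcripts, of 60321 transcripts in these classes from 24516 gene symbols and of 71967 transcripts in all. By role, the genes were 11 SR proteins with 74 transcripts, 20 hnRNPs with 149, 12 SF3 and U2AF genes with 41, 13 Prpf genes with 49, and 17 tissue regulators (Ptbp, Rbfox, Nova, Celf and Mbnl) with 100.

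Whole testes of wild-type C57BL/6 mice, an inbred laboratory strain, were collected at 3, 6, 12 and 18 months of age (3M, 6M, 12M and 18M), with 3 mice and 3 libraries at each age and no treatment at any. After removal of ribosomal RNA, total RNA was sequenced without keeping the strand. Whether the mice of an age came from 1 litter is not given in the sources used here, so the p-values measure the spread between these mice. The libraries held between 50924104 and 71803379 estimated reads in the table, of which the member genes took between 0.618% and 0.663%.

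Germ cell markers were present in each library, where the spermatocyte, round spermatid and elongating spermatid lists summed to at least 326, 509.6 and 23359 FPKM. FPKM is the number of fragments per kilobase of transcript, scaled to the mapped fragments of the library. Leydig cell markers, which mark the hormone-producing cells between the tubules, were the list with called genes. Of 8 Leydig markers, 3 fell over the 4 ages (Cyp17a1, Cyp11a1 and Lhcgr) and 7 had a negative slope at an unadjusted p of 0.05 or less, and their summed level was 1018 to 1175 FPKM in 3M testes, 940.3 to 1717 in 6M testes, 771 to 826 in 12M testes and 704 to 975 in 18M testes. Most of this sum was Insl3, at 841 FPKM on average, which was not called. In bulk tissue, fewer cells of a type and less RNA per cell cannot be told apart.

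SR proteins carry an RNA-recognition domain and a tail rich in arginine and serine, bind exonic enhancers and generally favour the use of the exon they bind. The hnRNPs coat nascent RNA and often act against the inclusion of an exon. The SF3a and SF3b complexes belong to the U2 snRNP and recognise the branch point, U2AF recognises the polypyrimidine tract and the AG of the 3′ splice site, and the Prpf proteins build the spliceosome and its tri-snRNP. The Ptbp, Rbfox, Nova, Celf and Mbnl families set exon choice by tissue, and are best known from brain and muscle. Many of these genes splice their own transcripts, including exons that carry a stop codon and send the RNA to nonsense-mediated decay (NMD). Testis is known for its extensive alternative splicing.

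The alternative exons of these genes are given first, since the forms of a splicing factor are a readout that their summed level does not show. They were found by comparing the deposited transcript structures, as internal exons that other transcripts of the gene skip or replace between the same splice sites, a comparison added after the data had been seen. Inclusion is the FPKM of the transcripts with the exon as a percentage of that of the transcripts with and without it. It comes from estimated transcript abundances, not from junction reads. At a mean of at least 1 FPKM, 81 such events lay in 41 of the member genes, and an exon that was skipped in some transcripts and replaced in others, or that had more than 1 pair of neighbours or end, was counted in each event. The exons printed were chosen after their values were seen, as examples of each role group. Sequences are from GENCODE M21 on GRCm38/mm10, 5′ to 3′ on the strand of the gene.

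The polypyrimidine tract binding proteins repress exons in many tissues, and Ptbp1 and Ptbp2 regulate each other's and their own splicing. The Ptbp1 exon of 78 nt (chr10:79860117-79860194, plus strand) is coding and keeps the reading frame. The Ptbp2 exon of 34 nt (chr3:119724612-119724645, minus strand) is coding and its length is not a multiple of 3, so that skipping it shifts the frame. They are shown because both genes used both forms, with the exon in capitals and 10 bases of each neighbouring exon in lower case.
Ptbp1 78-nt exon: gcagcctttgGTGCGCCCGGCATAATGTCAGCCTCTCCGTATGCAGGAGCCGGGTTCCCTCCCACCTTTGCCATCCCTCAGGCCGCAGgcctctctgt
Ptbp2 34-nt exon: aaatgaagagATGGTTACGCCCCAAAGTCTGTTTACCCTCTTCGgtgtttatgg
The Ptbp1 exon was included at 85.2% on average over the 12 libraries, between 81.9% and 88.9%. The Ptbp2 exon was included at 34.4%, between 21% and 40.1%, with means of 31.8% ± 6.7, 29.3% ± 8.5, 39.6% ± 0.52 and 36.6% ± 1.7 at 3M, 6M, 12M and 18M (SD, n = 3). As a share of estimated counts the Ptbp2 mean was 27.6%, still the minor form. The transcripts that skip the Ptbp2 exon here were all assembled, with no annotated one among them. The values of 3M and 18M overlapped for both exons.

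U2af1, the small subunit of U2AF, uses one of a pair of 67-nt exons that replace each other. Both exons are coding, at chr17:31651646-31651712 and chr17:31652502-31652568 on the minus strand, and a script counted 44 identical bases of 67 (65.7%) between them. They are shown with the exon in capitals and 10 flanking bases in lower case.
U2af1 67-nt exon: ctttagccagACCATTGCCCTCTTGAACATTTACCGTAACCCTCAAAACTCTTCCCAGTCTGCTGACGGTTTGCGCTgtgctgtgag
U2af1 67-nt alternative exon: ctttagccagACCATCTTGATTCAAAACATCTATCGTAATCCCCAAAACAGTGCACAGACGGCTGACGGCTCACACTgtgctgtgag
The first of these was used at 64.5% on average and between 60.5% and 69.8% in the 12 libraries. Its use was 61.3% ± 0.76 at 3M and 65.3% ± 4.5 at 18M (SD, n = 3), with overlapping values.

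The muscleblind-like genes Mbnl1 and Mbnl2 hold a 54-nt coding exon each (chr3:60614683-60614736 and chr14:120395712-120395765, both on the plus strand), a known determinant of the nuclear location of these proteins. The exons share 46 of 54 bases (85.2%), in capitals here with 10 flanking bases in lower case.
Mbnl1 54-nt exon: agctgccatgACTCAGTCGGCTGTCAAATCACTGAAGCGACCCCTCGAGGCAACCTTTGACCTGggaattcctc
Mbnl2 54-nt exon: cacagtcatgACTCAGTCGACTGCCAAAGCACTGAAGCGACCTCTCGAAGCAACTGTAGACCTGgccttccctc
The paralogs stood at opposite ends in their use. The Mbnl2 exon was included at 74.0% on average and at no less than 59.1% in any library, whereas the Mbnl1 exon was included at 17.7% and at no more than 45.9%. Inclusion of the Mbnl2 exon was 66.0%, 59.1% and 74.9% in 3M testes, 68.2%, 68.5% and 72.9% in 6M testes, 79.3%, 74.1% and 81.3% in 12M testes, and 73.2%, 84.4% and 86.1% in 18M testes. The 12M and 18M values lay mostly above the earlier ones, but 1 library of 3M and 1 of 18M overlapped. For Mbnl1 the values ran from 1.37% to 35.1% within 18M alone, at a gene level of only 2.69 FPKM.

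Among the hnRNPs, Hnrnpk and Hnrnph3 held coding exons whose inclusion did not overlap between 3M and 18M. The Hnrnpk exon of 72 nt (chr13:58396188-58396259, minus strand) was included at 86.7%, 91.5% and 91.6% at 3M and at 92.4%, 95.4% and 92.4% at 18M. The Hnrnph3 exon of 139 nt (chr10:63018760-63018898, minus strand) was included at 62.6%, 60.1% and 63.4% at 3M and at 56.2%, 59.7% and 57.5% at 18M. In both the gap between the nearest values of the ages was under the spread within an age. A paralogous exon of Hnrnph1, which like Hnrnph3 binds G-rich RNA, lies at chr11:50381459-50381597 on the plus strand and shares 126 of 139 bases (90.6%) with that of Hnrnph3. The 3 exons are in capitals with 10 flanking bases in lower case.
Hnrnpk 72-nt exon: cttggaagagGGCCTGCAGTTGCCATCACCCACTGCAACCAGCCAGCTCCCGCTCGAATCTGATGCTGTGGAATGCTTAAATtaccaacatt
Hnrnph3 139-nt exon: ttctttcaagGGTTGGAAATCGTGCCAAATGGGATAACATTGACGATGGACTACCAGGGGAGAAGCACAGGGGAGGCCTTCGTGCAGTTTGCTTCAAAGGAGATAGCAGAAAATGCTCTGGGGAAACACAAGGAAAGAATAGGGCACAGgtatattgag
Hnrnph1 139-nt exon: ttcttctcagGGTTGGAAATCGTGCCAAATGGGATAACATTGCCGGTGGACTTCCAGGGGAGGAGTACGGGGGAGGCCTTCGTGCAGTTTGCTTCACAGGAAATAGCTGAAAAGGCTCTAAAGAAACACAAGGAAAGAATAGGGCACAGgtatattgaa
The Hnrnph1 exon was included at 74.0% on average, between 60.5% and 94.0%. Exons this alike can share reads, so the Hnrnph1 and Hnrnph3 values are uncertain, and as a share of estimated counts the Hnrnph3 mean was 72.9% in place of 58.4%.

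Over all genes, 9.84% of 7172 exon events had inclusion values that did not overlap between 3M and 18M, and of the 81 events of members 4 did, 2 higher and 2 lower at 18M. The other 2 were a 530-nt exon of Hnrnpc and a 1049-nt exon of Mbnl1. The count for members was thus below the share over all genes.

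Of 4 further coding exons, those of Hnrnpab and Hnrnpd were intermediate at each age, and those of Celf2 and Srsf7 were mostly included. Hnrnpab and Hnrnpd are related genes of the AUF1 family, which bind AU-rich RNA. The Hnrnpab exon of 141 nt (chr11:51601750-51601890, minus strand) was included at 45.3%, between 40.9% and 48.7%. The Hnrnpd exon of 57 nt (chr5:99976534-99976590, minus strand) was included at 57.6%, between 47.2% and 64.7%. The Celf2 exon of 144 nt (chr2:6549832-6549975, minus strand) was included at 82.2%, between 78.7% and 85.5%, and at 75.3% by estimated counts. The Srsf7 exon of 36 nt (chr17:80202169-80202204, minus strand) was included at 84.2%, between 66.4% and 91.2%. These 4 are in capitals with 10 flanking bases in lower case.
Hnrnpab 141-nt exon: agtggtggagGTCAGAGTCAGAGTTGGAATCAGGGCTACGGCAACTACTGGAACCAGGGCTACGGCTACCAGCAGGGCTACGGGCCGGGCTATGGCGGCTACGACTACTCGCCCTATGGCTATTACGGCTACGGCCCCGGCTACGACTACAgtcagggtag
Hnrnpd 57-nt exon: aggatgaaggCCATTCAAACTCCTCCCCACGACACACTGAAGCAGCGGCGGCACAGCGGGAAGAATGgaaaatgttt
Celf2 144-nt exon: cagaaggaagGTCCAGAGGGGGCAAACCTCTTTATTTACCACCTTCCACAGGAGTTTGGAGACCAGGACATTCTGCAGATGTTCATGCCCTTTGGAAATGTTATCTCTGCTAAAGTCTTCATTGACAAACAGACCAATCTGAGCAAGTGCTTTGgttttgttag
Srsf7 36-nt exon: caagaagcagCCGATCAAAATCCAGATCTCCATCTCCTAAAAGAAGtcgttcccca
The Srsf7 values fell into a high set and a low set, since 1 library at each of 3M, 6M and 18M lay between 66.4% and 69.6% and the other 9 at 86.9% or more.

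Exons annotated in NMD transcripts were used in several genes. SR protein genes are known for such exons, through which a protein limits its own messenger RNA. The stretches below run from the start of the exon to the stop codon that GENCODE places in it, which is in capitals. They belong to an Srsf3 exon of 456 nt (chr17:29039454-29039487 for the part shown, plus strand), an Srsf7 exon of 460 nt (chr17:80205054-80205081, minus strand), an Hnrnpl exon of 70 nt (chr7:28817335-28817393, plus strand) and a Prpf4b exon of 141 nt (chr13:34899315-34899403, plus strand).
Srsf3 stop exon: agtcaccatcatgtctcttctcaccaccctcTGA
Srsf7 stop exon: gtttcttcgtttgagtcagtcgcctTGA
Hnrnpl stop exon: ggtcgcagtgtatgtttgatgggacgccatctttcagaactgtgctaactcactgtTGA
Prpf4b stop exon: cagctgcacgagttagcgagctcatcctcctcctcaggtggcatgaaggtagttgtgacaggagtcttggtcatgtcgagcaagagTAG
The Srsf3 exon was included at 28.7% on average, between 24.0% and 39.9%. The Srsf7 exon was included at 27.9%, between 11% and 61.8%. Its 3 highest libraries were the same 3M, 6M and 18M libraries that were lowest for the 36-nt exon. A 107-nt form of this exon starts at the same base and so holds the stretch shown. Counted as its own event, that form was included at 43.8%, between 24.5% and 56.1%. It was lowest in those 3 libraries, and the 27.9% leaves it out. The Hnrnpl exon was included at 25.7%, between 16.4% and 36.7%. The Prpf4b exon, in a kinase of the spliceosome, was the major form at 82.6%, between 73.1% and 92.5%. The transcripts that carry the Prpf4b exon here were all assembled. So were those with the Hnrnpl exon, and some of those with the 460-nt Srsf7 exon. Whether the stop codon lies in the reading frame was not tested for any of the 4 exons. None of the 4 separated 3M from 18M.

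Prpf8 codes for the large scaffold protein at the catalytic centre of the spliceosome. Its 120-nt coding exon (chr11:75491759-75491878, plus strand), in capitals below with 10 flanking bases in lower case, is skipped in 1 assembled transcript.
Prpf8 120-nt exon: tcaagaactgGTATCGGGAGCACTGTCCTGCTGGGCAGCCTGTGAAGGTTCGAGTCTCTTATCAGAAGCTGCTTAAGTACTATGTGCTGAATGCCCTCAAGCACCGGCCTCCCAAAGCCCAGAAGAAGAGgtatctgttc
Inclusion was 88.2%, 96.6% and 96.2% in 3M testes, 92.2%, 100% and 6.40% in 6M testes, 100%, 94.8% and 86.2% in 12M testes, and 9.14%, 91.5% and 5.85% in 18M testes. So 9 libraries were at 86.2% or above and 3 at 9.14% or below, with nothing between. The 3 low libraries were 1 of 6M and 2 of 18M, and the mean difference between ages rests on them. Whether the reads of those 3 libraries lack the exon was not tested.

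**Figure D1:**
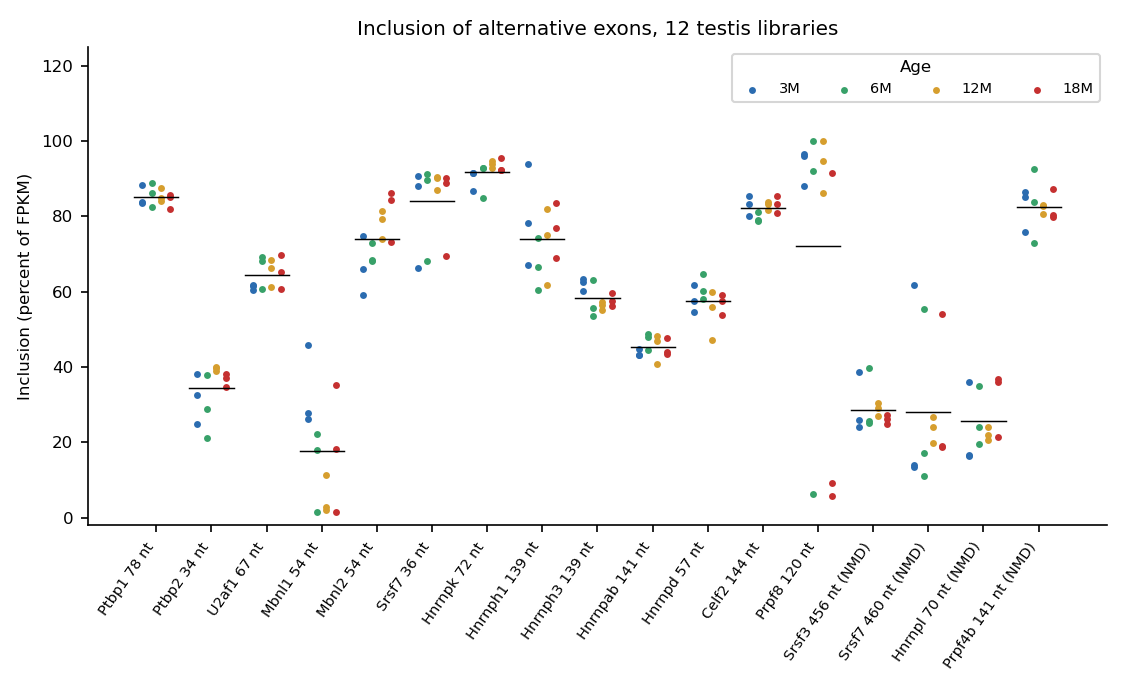
Inclusion of the alternative exons described, as the percentage of the FPKM of transcripts with and without the exon, for each of the 12 libraries coloured by age, with the mean as a black line. NMD marks exons whose annotated transcript is subject to nonsense-mediated decay. The Mbnl1 and Mbnl2 exons lie at 17.7% and 74.0% on average, and the Prpf8 values split into 9 high and 3 low libraries.

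The summed FPKM of a gene was stable between mice in most of the family. Of the 68 member genes with a mean of at least 1 FPKM, 22 had a highest library less than 1.2 times the lowest, 41 between 1.2 and 2 times and 5 at least 2 times. The median coefficient of variation within an age was 6.97% for these genes and 8.69% for the 13383 genes of the table at that level. Their median level was 18.5 FPKM, against 8.15 FPKM for all those genes, and the 2 sets were not matched for level. The member genes also had more transcripts, a median of 5 each against 2, and a lower median share of the leading transcript, 50.5% of the gene's FPKM against 77.0%. Transcripts with a new combination of junctions (class j) made up 55.7% of the member transcripts and 38.3% of all transcripts in the 4 classes.

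The hnRNPs were the most abundant group, with summed levels of 849 to 952 FPKM per library. The highest member gene was Hnrnpu, a nuclear matrix protein that binds RNA and chromatin (Gene ID 51810, chr1:178322691-178337784, minus strand), at 163 FPKM on average and between 154 and 173. Hnrnpa2b1, which binds RNA in the nucleus and sorts it to transport granules, followed at 119.6 FPKM and Hnrnpf, a binder of G-tracts, at 112 FPKM. Hnrnph2 on the X chromosome was the lowest hnRNP at 5.96 FPKM. At the 4 ages the hnRNPs summed to 911 ± 54.6, 886 ± 32.1, 904 ± 38 and 893 ± 15.1 FPKM (SD, n = 3), with overlapping spreads.

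The SR proteins summed to 304 to 356 FPKM. Srsf5 was the highest at 76.1 FPKM, between 69.7 and 84.2. Srsf2, which binds exonic enhancers, followed at 55.6 FPKM, while Srsf12 was at 0.584 FPKM, the lowest of the group. The other 8 SR genes lay between 17.0 FPKM (Srsf7) and 31.4 FPKM (Srsf10). The sums were 320.5 ± 18.5, 328 ± 25.5, 337 ± 20.8 and 319 ± 4.67 FPKM at 3M, 6M, 12M and 18M (SD, n = 3).

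The SF3 and U2AF genes summed to 249 to 272 FPKM and the Prpf genes to 173 to 189 FPKM. Sf3b2, a subunit of SF3b, was the highest core gene at 56.9 FPKM, and Sf3a2 the lowest of SF3 at 6.06 FPKM. Of the U2AF genes, U2af1 was at 22.3 ± 0.917, U2af2, the large subunit, at 16.8 ± 4.99, and the U2af1 relative U2af1l4 at 14.6 ± 1.12 FPKM (SD over 12 libraries), and the ranges of neighbours in this order overlapped. U2af2 stood at 27.3 FPKM in 1 library of 3M and 27.5 in 1 of 18M, and at 13.8 to 15.7 in the other 10. Its estimated counts did not show these high values, with a CPM of 98.8 ± 3.9 at 3M and 98.9 ± 6.0 at 18M (SD, n = 3). Its exons overlap those of Ccdc106 on the same strand. In the Prpf group, Prpf40b, linked to the U1 snRNP, was highest at 25.2 FPKM and Prpf39, of the same particle, lowest at 4.21 FPKM.

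The tissue regulators spanned the widest range. For Ptbp the order was Ptbp1 at 32.3 ± 2.05, Ptbp2 at 19.8 ± 1.96 and Ptbp3 at 3.47 ± 0.240 FPKM (SD over 12 libraries), with no overlap between neighbours. For Celf, whose members bind GU-rich RNA, the order was Celf3 at 26.9 ± 3.36, Celf5 at 9.99 ± 1.41, Celf1 at 6.36 ± 0.989, Celf6 at 6.26 ± 0.483, Celf2 at 3.52 ± 0.312 and Celf4 at 1.31 ± 0.178 FPKM, of which only Celf1 and Celf6 overlapped as neighbours. Mbnl2 at 3.61 ± 0.325 and Mbnl1 at 2.69 ± 0.451 FPKM overlapped, and Mbnl3 was at 0.314 ± 0.0378. Rbfox2, a binder of UGCAUG, was at 2.17 ± 0.217 FPKM, whereas Rbfox3 at 0.0601 ± 0.0312 and Rbfox1 at 0.0277 ± 0.0200 lay near 0 and overlapped. Nova2 was at 1.51 ± 0.125 and Nova1 at 0.287 ± 0.0300 FPKM, without overlap. Ptbp2, Celf3 and Celf5, best known from brain, were among the most abundant tissue regulators of these testes. Exons of Celf3 overlap those of Riiad1 on the other strand, and exons of Celf5 overlap those of Gm16105 and Smim24. These libraries cannot tell the strands apart. In Celf5, 93.9% of the FPKM came from class j transcripts.

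**Figure D2:**
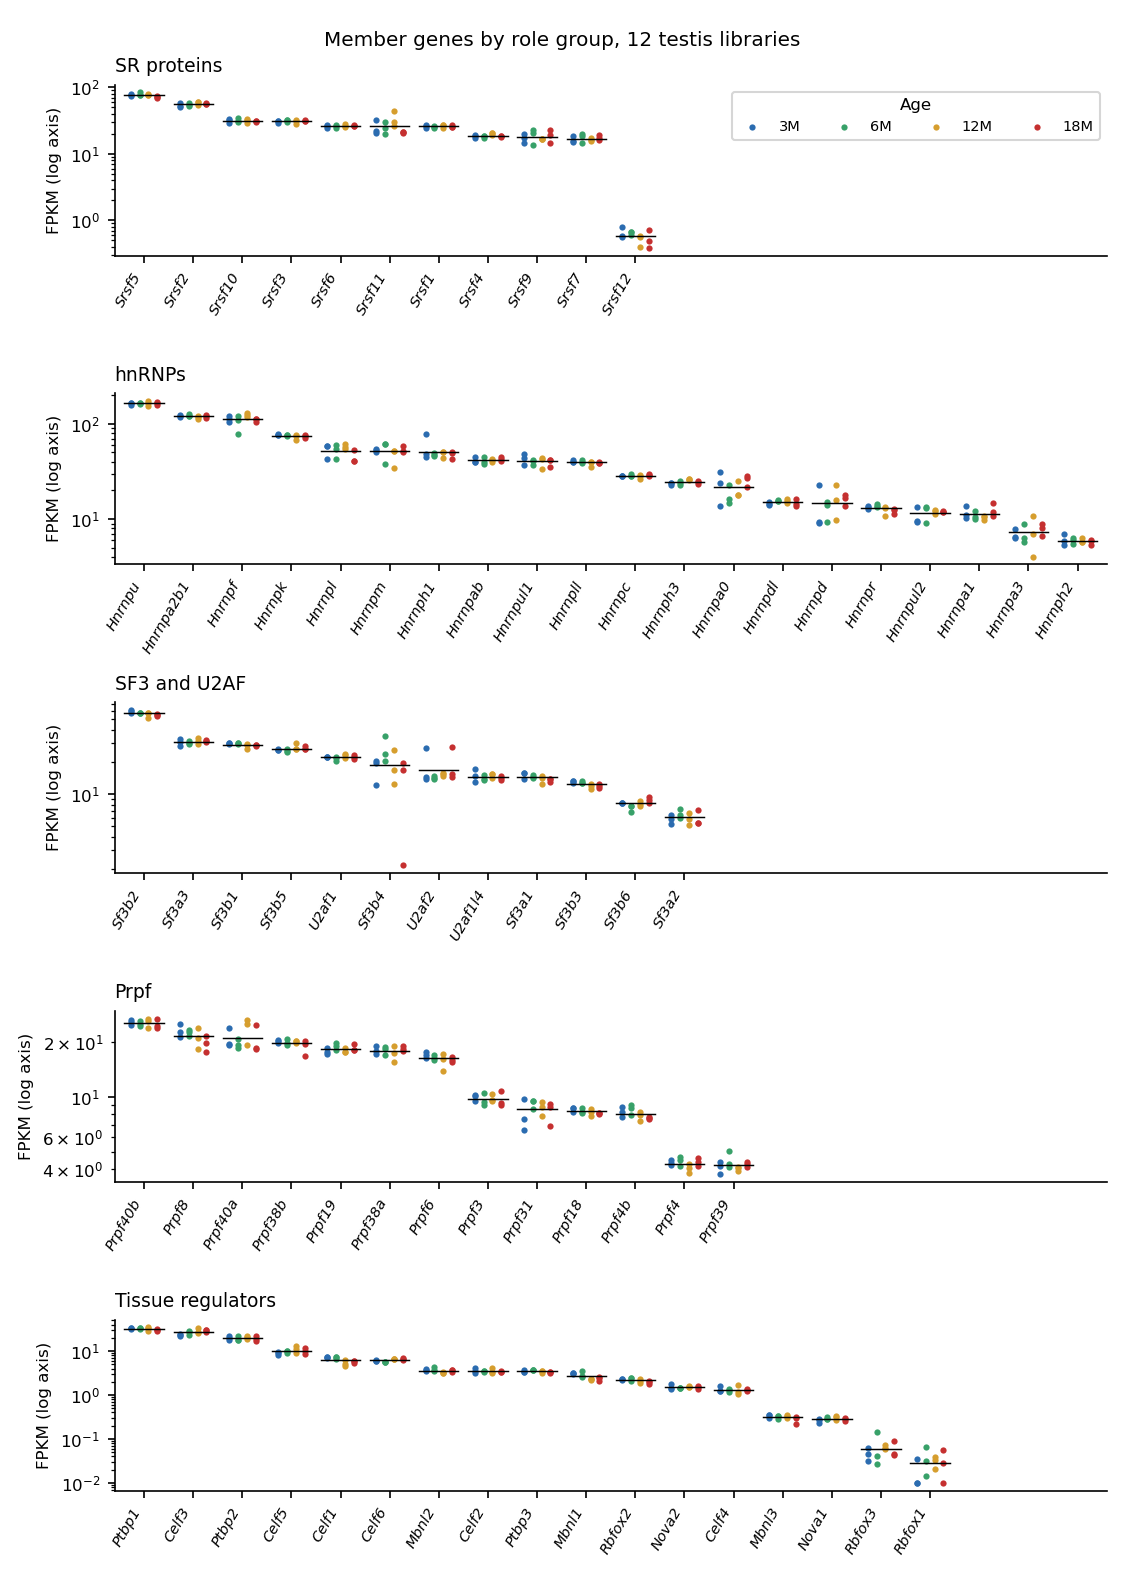
FPKM (log axis) of the 73 member genes in each of the 12 libraries, by role group and in order of the mean, which is the black line. Colours mark the ages, and values below 0.01 are drawn at 0.01. Points of a gene lie close together for most genes. Some, among them Sf3b4, U2af2, Hnrnpa0, Srsf11, Hnrnpa3, Hnrnpd and Hnrnph1, have a library or more that stands apart in FPKM. In CPM this was not so for U2af2. It was less so for Hnrnpd and Hnrnph1, at 62.8 ± 5.6 and 217.6 ± 18.1 CPM at 3M (SD, n = 3).

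No member gene passed edgeR's adjusted threshold in the tests on gene sums over the 4 ages or between 3M and 18M, while DESeq2 called Celf1. The slope over the 4 ages was tested on estimated counts with edgeR's quasi-likelihood test, with Benjamini-Hochberg adjustment over all genes. Of 73 member genes tested, 0 passed at an adjusted p of 0.05, against 0.41% of 18545 genes, and 7 had an unadjusted p of 0.05 or less (2 positive, 5 negative), against 17.5%. Between 3M and 18M, 0 of 72 passed, against 0.0662% of 18130 genes, and 7 were at an unadjusted p of 0.05 or less (1 higher and 6 lower at 18M), against 13.5%. In the test for any difference among the 4 ages, 0 of 73 passed, against 0.0917%, and 7 had an unadjusted p of 0.05 or less, against 10.3%. DESeq2 called 0 members for the slope, 1 between 3M and 18M (1.2% of 22108 genes) and 1 for any difference (1.72%), and that gene was Celf1 both times.

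The intervals bound how large a change the 3M to 18M comparison leaves room for. Of the 72 genes tested, 70 had a 95% interval of the log2 change within ± 1 (2-fold), and 64 had it within ± 0.5. The exceptions to the first were Rbfox3, at a level near 0, and Sf3b4. The fitted log2 changes ran from -0.41 to 0.38, with 37 above 0 and 35 below. The median size of the change was 0.068 on the log2 scale, against 0.115 over all genes. These sets were not matched for level, and the members had the higher median FPKM. In simulated data of the same depth and spread, the 3M to 18M test called 46% of 1.5-fold and 92% of 2-fold changes, and the slope test 66% and 94%.

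**Figure D3:**
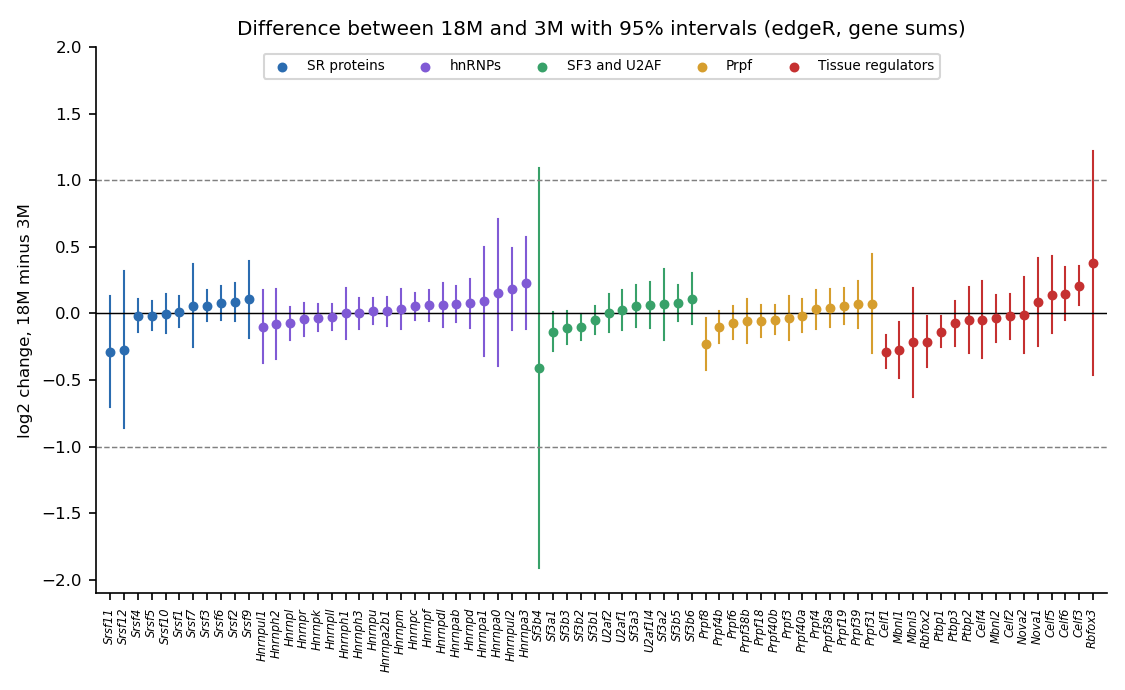
The log2 change from 3M to 18M of the 72 member genes tested (points) with its 95% interval (lines), coloured by role group, and dashed lines at a 2-fold change. Of the intervals, 70 lie between the dashed lines, and those of Sf3b4 and Rbfox3 cross one or both.

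Celf1, which binds GU-rich elements and promotes decay and alternative splicing of its targets, had the lowest edgeR p of the members in the slope test, between 3M and 18M and for any difference among ages (Gene ID 13046, chr2:90940397-91019497, plus strand). Its level was 7.31, 7.05 and 7.48 FPKM in 3M testes, 6.53, 7.22 and 7.49 in 6M testes, 5.11, 6.32 and 4.58 in 12M testes, and 5.90, 5.38 and 5.94 in 18M testes. The 3M and 6M values were all above those of 12M and 18M. The log2 change from 3M to 18M was -0.29 (SE 0.053, interval -0.41 to -0.16, unadjusted p = 8.9e-04, adjusted p = 0.237 with edgeR), and DESeq2 gave an adjusted p of 0.00864. On simulated gene counts of this comparison DESeq2 called 45 unchanged genes and edgeR 8. Each method had its own simulated draw, with the spread estimated by edgeR. In these separate draws DESeq2 called 66% of the 1.5-fold changes and edgeR 46%. The slope was -0.023 per month (SE 0.0070, edgeR adjusted p = 0.148).

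Mbnl1 had the same ordering of ages (Gene ID 56758, chr3:60472830-60629750, plus strand). It stood at 3.04, 3.12 and 3.12 FPKM in 3M testes, 2.63, 2.78 and 3.61 in 6M testes, 2.24, 2.32 and 2.32 in 12M testes, and 2.51, 2.50 and 2.11 in 18M testes. The groups of 3M and 18M did not overlap, and the log2 change was -0.27 (SE 0.091, edgeR adjusted p = 0.306). Rbfox2 was at 2.38, 2.37 and 2.17 FPKM at 3M and 2.04, 2.0 and 1.79 at 18M, with a log2 change of -0.21 (SE 0.081, edgeR adjusted p = 0.340). These 3 genes had lower values at the ages at which the summed Leydig markers were lower too. Macrophage markers had mean sums of 26.0, 28.5, 23.8 and 23.6 FPKM at 3M, 6M, 12M and 18M. Those of peritubular and endothelial markers were 26.7, 25.8, 23.5 and 24.4 FPKM, so the ordering was not particular to the Leydig list. The part of any of these cells in the 3 genes was not tested.

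Prpf8 was at 21.2, 25.0 and 22.6 FPKM at 3M and 21.6, 19.5 and 17.7 at 18M, a log2 change of -0.23 (SE 0.084, edgeR adjusted p = 0.322). Here the 3M and 18M levels overlapped in 1 library. Ptbp1 was at 32.3, 33.5 and 34.5 FPKM at 3M and 31.2, 29.2 and 30.2 at 18M, which did not overlap, with a log2 change of -0.14 (SE 0.049, edgeR adjusted p = 0.322). Sf3b2 had a log2 change of -0.10 (-0.099, SE 0.042, edgeR adjusted p = 0.368).

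Celf3 had the only positive difference at an unadjusted p of 0.05 or less between 3M and 18M (Gene ID 78784, chr3:94473610-94492198, plus strand). It stood at 23.7, 22.0 and 24.1 FPKM in 3M testes, 28.0, 23.6 and 26.7 in 6M testes, 27.2, 26.3 and 33.4 in 12M testes, and 27.1, 31.1 and 30.1 in 18M testes. All 18M values were above all 3M values, and the log2 change was 0.21 (SE 0.063, interval 0.061 to 0.36, edgeR adjusted p = 0.297). Celf3 exons overlap those of Riiad1 on the other strand, which these libraries cannot tell apart. Celf6 was at 5.81, 6.00 and 6.41 FPKM at 3M and 6.37, 6.70 and 6.98 at 18M, which overlapped, with a slope of 0.014 per month (SE 0.0052, edgeR adjusted p = 0.207). Markers of round spermatids, the early haploid germ cells, were higher in this direction too, at 509.6 to 588 FPKM summed at 3M and 643 to 649.6 at 18M, with 5 of 6 at an unadjusted p of 0.05 or less for the slope and 0 passing the adjusted threshold. Elongating spermatid markers summed to 24942 to 27459 FPKM at 3M and 25775 to 30602 at 18M, which overlapped. Of these 7 markers, 2 had a positive edgeR slope at an unadjusted p of 0.05 or less. The part of either cell type in the Celf3 and Celf6 values was not tested.

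Of the other genes with the largest fitted differences, Sf3b4, Srsf11 and Hnrnpa0 varied widely between mice of an age. Sf3b4, a subunit of SF3b that contacts the RNA near the branch point, was at 19.4, 20.2 and 12.3 FPKM in 3M testes, 23.8, 20.5 and 34.7 in 6M testes, 12.3, 25.6 and 16.7 in 12M testes, and 19.5, 2.17 and 17.0 in 18M testes. Its log2 change of -0.41 (SE 0.64, edgeR adjusted p = 0.809) rested on the 18M library at 2.17 FPKM, without which it was 0.089. Srsf11, an SR-like protein, was at 20.2, 31.8 and 21.8 FPKM at 3M and 20.5, 21.3 and 21.5 at 18M, a log2 change of -0.29 (SE 0.18, edgeR adjusted p = 0.501). Hnrnpa0, which binds AU-rich RNA, was at 23.9, 31.6 and 13.9 FPKM at 3M and 22.0, 27.2 and 28.5 at 18M, and its log2 change of 0.16 (SE 0.24, edgeR adjusted p = 0.797) became -0.077 without the 3M library at 13.9 FPKM. Hnrnpa3 had a log2 change of 0.23 (SE 0.15), Hnrnpul2 of 0.19 (SE 0.13) and the SF3b subunit Sf3b6 a slope of 0.011 per month (SE 0.0057), with edgeR adjusted p-values of 0.519, 0.555 and 0.321.

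**Figure D4:**
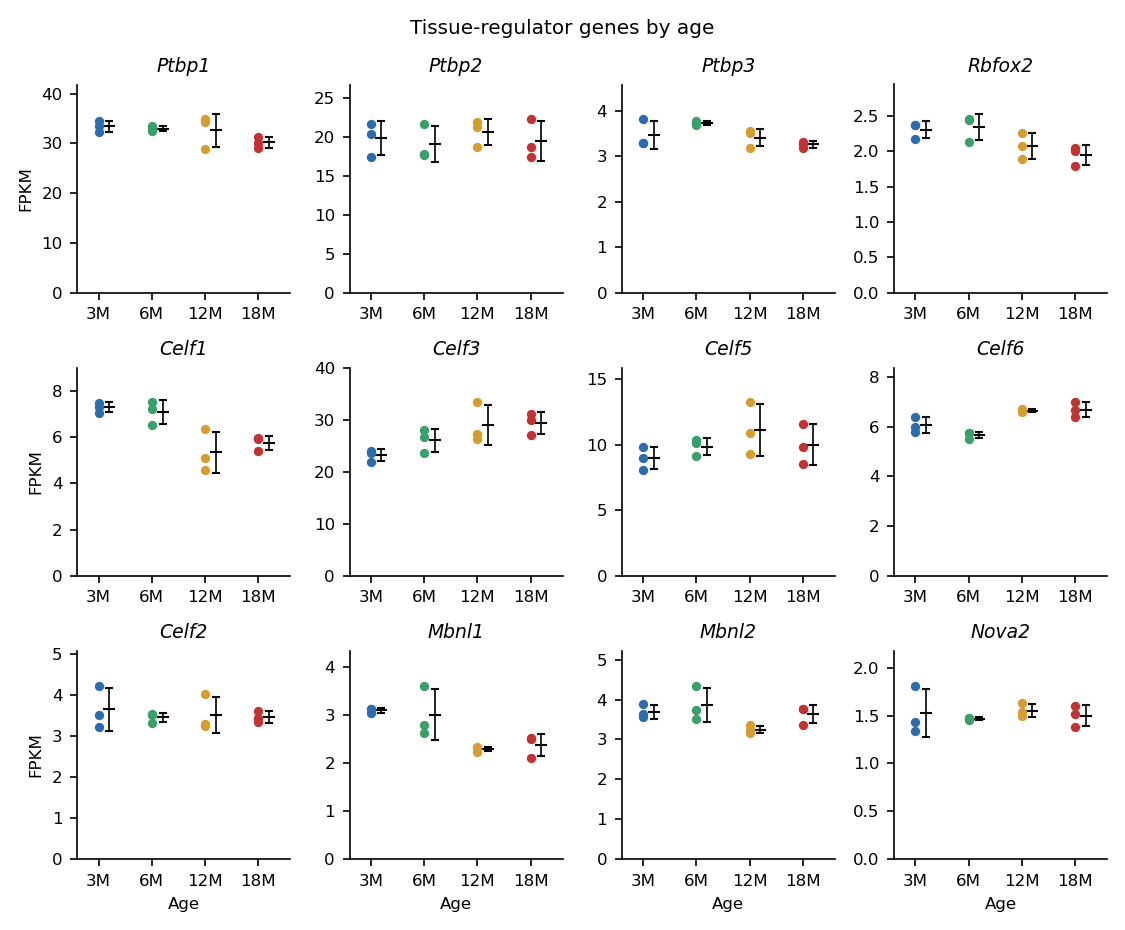
FPKM of 12 tissue-regulator genes at 3M, 6M, 12M and 18M, as 1 point per library with the mean and SD (n = 3) in black, on axes that start at 0. Celf1 and Mbnl1 lie lower at 12M and 18M than at 3M, Celf3 lies higher, and Ptbp2 and Celf2 overlap at all ages. Nova2 overlaps between 3M and 18M but not between 6M and 12M.

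Between consecutive ages no member passed either. From 3M to 6M, 0 of 72 genes passed the adjusted threshold (0.0497% of all genes) and 1 had an unadjusted p of 0.05 or less (3.96%), which was Sf3b4. From 6M to 12M, 0 of 73 passed (0.0606%) and 7 had an unadjusted p of 0.05 or less (8.72%), namely Srsf4, Celf6, Hnrnph3 and U2af1l4 with higher and Mbnl1, Celf1 and Mbnl2 with lower values at 12M. From 12M to 18M, 0 of 73 passed (0.0275%) and 3 had an unadjusted p of 0.05 or less (3.52%), Srsf11, Srsf4 and Hnrnpa0. By DESeq2, the calls in these 3 steps were 0, 0 and 1, the last being Srsf11 in the step from 12M to 18M, where 0.154% of all genes were called.

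Srsf11 was at 30.0, 25.8 and 43.2 FPKM at 12M and 20.5, 21.3 and 21.5 at 18M, without overlap (Gene ID 69207, chr3:158010493-158037732, minus strand). The log2 change between them was -0.69 (SE 0.096, interval -0.92 to -0.47), with an edgeR adjusted p of 0.243 and a DESeq2 adjusted p of 4.5e-08. The edgeR adjusted p was 0.0358 without the second 12M library. Its exons overlap those of Lrrc40 on the other strand, which these libraries cannot tell apart.

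By non-overlap of the 3M and 18M libraries in TMM-scaled counts (CPM), 13 of the 68 genes at 1 FPKM or more were apart, 4 higher and 9 lower at 18M, against 22.4% of 13351 genes. The higher ones were Celf3, Hnrnpc, Sf3b5 and Sf3b6, and the lower ones Celf1, Mbnl1, Rbfox2, Ptbp1, Prpf8, Prpf18, Prpf4b, Sf3b2 and Sf3b3.

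Applying the study's rule for continuous change, a mean FPKM that moves the same way at each of the 3 steps and reaches 1 FPKM at some age, 8 of 68 member genes qualified. The means of Celf3, Hnrnpa3 and Srsf6 were higher at each step, as were 6.34% of 13688 genes, and those of Prpf18, Prpf8, Ptbp1, Sf3a1 and Sf3b2 were lower, as were 8.53%. This rule uses no replicate spread. The means of Ptbp1 were 33.4, 32.95, 32.7 and 30.2 FPKM, and those of Celf3 23.3, 26.1, 29.0 and 29.4. Of 280 member transcripts, 6 had higher means (5.09% of 32214 transcripts) and 9 lower means (5.05%) at each step. The first belonged to Celf3 (2), Hnrnpa3, Hnrnpd, Hnrnph3 and Prpf31, and the second to Prpf40b (2), Celf1, Hnrnpd, Hnrnpll, Mbnl2, Sf3a1, Sf3b2 and Srsf10.

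Single transcripts were tested in the same way. Over the 4 ages, 0 of 379 member transcripts passed the edgeR slope test, against 0.0103% of 58289, and 14 had an unadjusted p of 0.05 or less, against 7.15%. Between 3M and 18M, 0 of 361 passed at an adjusted p of 0.05 with a log2 change of at least 1, against 0.108% of 54472, and 18 had an unadjusted p of 0.05 or less, against 5.4%. For transcript use within the gene, 0 of 349 passed, against 0.317% of 35597, and 7 had an unadjusted p of 0.05 or less, against 2.71%. In simulated data the slope test on transcripts called 35% of 4-fold and 62% of 16-fold changes, with 9 false calls, and the 3M to 18M test called 0% of either. The test of use called 13% of 16-fold and 3% of 4-fold changes. It also called 66 transcripts whose own level had not been changed. These can include other transcripts of a changed gene, whose share shifts too, so the 66 do not give its error rate. With so few changes found and no known error rate, its calls, here and over all genes, are not read as changes of use.

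DESeq2 called 4 member transcripts for the slope, against 1.72% of all, and 5 between 3M and 18M with a log2 change of at least 1, against 2.03%. For the slope these were transcripts of Srsf5, Hnrnpf, Mbnl2 and U2af1l4. Between 3M and 18M they were 2 of Mbnl2 and 1 each of Celf3, Prpf8 and Hnrnph3. The Mbnl2 pair moved in opposite directions: NM_175341 had a log2 change of -2.01 (SE 0.31, DESeq2 adjusted p = 2.6e-08) and the assembled MSTRG.6772.3 one of 1.93 (SE 0.52, DESeq2 adjusted p = 0.00987). Both carry the 54-nt exon shown above, and neither passed with edgeR. The Mbnl2 transcript called for the slope, NM_207515, is the one without this exon. Its slope was -0.064 per month (SE 0.019, DESeq2 adjusted p = 0.0383), and it did not pass with edgeR either.

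The shares of transcripts varied widely between mice of an age in several genes. In Prpf8, the annotated NM_138659 (7481 nt) took 82.1% ± 7.2 of the gene's FPKM in 3M testes, 31.9% ± 46 in 6M testes, 53.4% ± 44 in 12M testes and 30.8% ± 41 in 18M testes (SD, n = 3). The assembled MSTRG.3181.3 (7321 nt), which skips the 120-nt exon, took 5.49% ± 3.9 at 3M and 63.3% ± 49 at 18M (edgeR adjusted p of its use = 0.928). In Mbnl1, NM_020007 took 40.0% ± 20 in 3M testes, 67.1% ± 7.4 in 6M testes, 84.8% ± 15 in 12M testes and 77.2% ± 11 in 18M testes, and the adjusted p of its use was at the ceiling of 1. In Celf1 the transcript with the highest mean over the 12 libraries, MSTRG.11593.5, took 30.3% ± 18 at 3M and 39.0% ± 15 at 18M, and NM_017368 took 23.6% ± 18 and 14% ± 12. In Celf3 the one with the highest mean, MSTRG.13129.14, took 22.3% ± 8.6 and 22.4% ± 3.3, and MSTRG.13129.9 took 2.52% ± 4.4 and 15.4% ± 14.

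For the remaining genes named for their fitted change, the share of the transcript with the highest mean over the 12 libraries is given, which need not lead at each age. At 3M and at 18M it was 90% ± 1.6 and 86.0% ± 5.3 for Sf3b4, 81.8% ± 20 and 91.7% ± 14 for Hnrnpa0, and 49.5% ± 3.8 and 47.5% ± 9.1 for Hnrnpa3 (SD, n = 3). For Hnrnpul2 it was 90.8% ± 4.8 and 92.6% ± 5.0, and MSTRG.10330.2 took 9.20% ± 4.8 and 7.39% ± 5.0. For Celf6 it was 34.4% ± 7.7 and 32.5% ± 9.8. For Srsf11 this transcript took 39.0% ± 22 at 3M, 15.4% ± 13 at 12M and 51.6% ± 2.4 at 18M. For Rbfox2 NM_001110827 took 37.0% ± 9.3 and 40.2% ± 3.3, and NM_175387 took 9.42% ± 9.5 and 13.5% ± 3.9. Sf3b6 has 1 transcript.

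Other genes of the splicing machinery were tested from 5 lists. Of 12 SR-related genes, 7 tested SR kinases and import factors, 24 snRNP proteins, 31 tested RNA-binding regulators, and 15 genes of the exon junction complex and NMD, 0 passed the slope test or the 3M to 18M test with edgeR. At an unadjusted p of 0.05 or less for the slope they held 0 positive and 2 negative, 1 and 0, 2 and 1, 1 and 3, and 0 and 1. Over all genes 17.5% were at this threshold. The next 3 genes were named after their values were seen. Srrm2, a large SR-related protein of the spliceosome, had the largest difference among those with an unadjusted p of 0.05 or less, with a log2 change of -0.96 (SE 0.31, edgeR adjusted p = 0.304) between 3M and 18M. Snrnp200, the RNA helicase that works beside Prpf8, had a log2 change of -0.23 (SE 0.064, edgeR adjusted p = 0.291), and Rbmxl2, a germ cell relative of the hnRNP G gene, one of 0.20 (SE 0.061, edgeR adjusted p = 0.299).

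Of the other cell type lists, 0 of 7 Sertoli, 8 spermatogonia, 7 spermatocyte, 6 round spermatid, 7 elongating spermatid, 8 macrophage and 8 peritubular and endothelial markers passed the slope test. Macrophage markers summed to 24.5 to 27.2 FPKM at 3M and 21.6 to 26.2 at 18M, and peritubular and endothelial markers to 25.3 to 28.9 and 21.4 to 26.9. Among the somatic markers under 1 FPKM were Lhcgr at 0.788, Fshr at 0.564 and Kdr at 0.281 FPKM.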

How the data were processed

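Testis RNA of 12 mice was sequenced. Per the labels and the study's methods, the authors aligned reads to mm10 with HISAT2 and assembled transcripts with StringTie (1.3.3b per the file headers). The deposited table holds, per transcript and library, an estimated count (derived from StringTie's mean coverage of the transcript and made whole by the authors) and an FPKM value, without scaling between libraries. The libraries were unstranded, so 27 member genes with exons overlapping a gene on the other strand, and near-identical copies, are uncertain. The FPKM of the members matched the assembly files of each library (0 of 4956 values differed).

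Estimated counts and FPKM were summed per gene symbol. Changes were tested with edgeR 4.0.16 (quasi-likelihood F test, TMM, default expression filter, Benjamini-Hochberg over all features tested), in R 4.3.3, for the slope per month over 12 libraries, any difference among ages, and pairs of ages (libraries of those ages). Transcript use within genes was tested with edgeR's exon-usage test. DESeq2 1.42.0 was an alternative. The kinds of test were checked on simulated data with 100 features changed at each fold size. For the levels of genes, edgeR made 8 to 13 false calls and DESeq2 45 (3M to 18M). From 3M to 18M, DESeq2 called 66% of the 1.5-fold changes and edgeR 46%. Each method had its own simulated draw, with the spread estimated by edgeR, so they were not compared on the same counts. The test of transcript use called few of the changed transcripts, and 66 others. Among these, transcripts of a changed gene, whose share shifts too, were not told apart from false calls. It was kept because it had been planned. The 3M to 18M test on transcripts called 0 of the changed ones. Alternative exons came from the transcript structures and GENCODE M21. Genes were named if called, or among the 5 largest positive and 5 largest negative differences at 1 FPKM or more, or highest or lowest of a role group, or in a tissue-regulator or U2AF family. For genes named by difference, the leading transcript and the one with the largest share difference were given. Members, lists and this rule were chosen with earlier results of these data known. Library totals of 50924104 to 71803379 limit the precision of transcripts more than of gene sums.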

Additional observations from a re-analysis of the deposited data

How the results depend on the processing

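The count of 0 member genes and 0 member transcripts called by edgeR was the same with library sizes only, DESeq2 size factors and all class codes or all 12 libraries in 1 fit, where these were run. It was also 0 for gene sums and for levels of transcripts without the filter on low counts. On separate simulated draws DESeq2 made more false calls than edgeR (45 against 8) and called more of the 1.5-fold changes (66% against 46%). DESeq2 called 0 genes for the slope, 1 between 3M and 18M and 1 for any difference (Celf1). It called 0, 0 and 1 (Srsf11) in the consecutive steps, and 4 and 5 transcripts for the slope and from 3M to 18M. At an unadjusted p, the gene counts were 7 for the slope, 7 from 3M to 18M, 7 for any difference, 1, 7 and 3 in the steps, and the transcript counts 14 and, with the fold minimum, 8. Transcript use gave 2 calls without the filter. It gave 0 to 2 when a replicate was left out (2 without 3M replicate 1, 3M replicate 3 or 18M replicate 2). The simulated data did not settle the error rate of this test. In the step from 12M to 18M leaving out a replicate gave 0 to 1 calls, the 1 being Srsf11 without 12M replicate 2. For the other edgeR tests leaving out a replicate gave 0 calls throughout. The cause of these differences was not tested.

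Counts from the rule of continuous change moved most. Transcripts with higher means at each step were 6, and 2 at a minimum of 2 FPKM, 18 with medians, and 3 to 12 with a replicate left out. Those with lower means were 9, and 5 at a minimum of 2 FPKM, and 4 to 14. For genes they were 3 (1 to 5) and 5 (3 to 8). Counts moved over 1.5 times without any 1 of the 3M or 18M replicates or 12M replicate 1 (higher transcripts), 12M replicate 1 or 18M replicate 3 (lower transcripts), 3M replicate 1 or 3, 6M replicate 2 or 12M replicate 2 (higher genes), and 6M replicate 3 or 12M replicate 1 or 2 (lower genes). The log2 change of Sf3b4 from 3M to 18M ran from -0.81 to 0.089 (without 18M replicate 2), and that of Hnrnpa0 from -0.077 (without 3M replicate 3) to 0.44. The median share of the leading transcript over all 73 members was 52.2% by FPKM (50.5% over the 68 at 1 FPKM or more) and 49.9% by estimated counts. Replicate numbers are shared by the ages in the labels, but same-numbered libraries did not deviate together (correlations of -0.059 to 0.16, 1 of 18 over 0.1, and 5 of 12 libraries closest to their own number). With the replicate block, 0 members were called in each test.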

Other observations

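The member symbols also carried 18 transcripts outside the 4 classes used, 14 that lay within an intron (class i) and 4 on the opposite strand of exons (class x). The intronic ones had a mean level of 0.291 to 2.07 FPKM and a median of 0.878, and the opposite-strand ones of 0.437 to 1.91 FPKM and a median of 1.19. Since the libraries keep no strand, the strand of these transcripts rests on the splice sites that the assembly assigned.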
